A study of Mus musculus with 6 samples.

Results

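The collagen genes were taken as all probes of the array whose gene symbol is Col, a number, the letter a and a number, such as Col1a1. The rule found 61 of 55681 probes, which stand for 42 of 19897 named genes. Of these, 49 probes of 35 genes passed the filter (a signal well above background on 2 or more of the 6 arrays) and were tested. The other 12 probes were not: 10 were above background on no array and 2 on 1 array. Of Col4a3, Col6a4, Col6a5, Col10a1, Col13a1, Col19a1 and Col28a1 no probe passed, and no probe was matched to Col6a3 or Col12a1.

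The cells came from spinal cords of mouse embryos at E12.5 (E for embryonic day) and were sorted by flow cytometry. All embryos carried Hb9::GFP, a reporter in which regulatory sequence of the motor neuron gene Hb9 (Mnx1) drives green fluorescent protein, so GFP-on cells were taken as motor neurons and all remaining cells as the GFP-off fraction. There were 4 groups: motor neurons labelled mir-17~92 -/- ; Hb9::GFP (2 arrays), motor neurons labelled WT ; Hb9::GFP (2 arrays), and 1 array of GFP-off cells for each genotype label. The series set out to look for targets of the microRNA cluster mir-17~92 in motor neurons. Nothing in the labels says whether the 2 arrays of a group came from separate embryos, so p-values measure only the spread between these arrays, which may be technical.

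Collagens are secreted proteins whose alpha chains wind into a helix. Fibrillar collagens form the fibres of connective tissue and bone, network-forming type IV collagens carry basement membranes around vessels and at the surface of the neural tube, and types II, IX and XI make up the fibrils of cartilage, which at this age forms the vertebral primordia next to the cord. FACIT collagens sit on the surface of fibrils, and transmembrane collagens are anchored in the plasma membrane, some of them in neurons.

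Levels are log2 of the processed signal minus the 75th percentile of the same array, so 1 unit is a doubling; they compare arrays for 1 probe and not 1 probe with another. The 75th percentile signal ran from 48.5 to 64.5 on 3 of the motor neuron arrays and from 340 to 550 on the GFP-off arrays, with 506 on the second knockout-labelled motor neuron array. Between 40.3% and 61.2% of probes were well above background. The wild-type-labelled motor neuron arrays stood apart: replicate 2 correlated at 0.736 to 0.806 with all arrays but its partner (0.928), and replicate 1 at 0.844 to 0.903 with the others, while the remaining 4 correlated at 0.930 to 0.984 across 19075 probes. The probe of Mir17hg, the host gene of the cluster, went against the genotype labels: it read 4.55 and 4.78 in knockout-labelled and -2.38 (not well above background) and 2.73 in wild-type-labelled motor neurons, and 4.62 and -1.23 in the GFP-off cells. Whether the probe lies in the deleted part is not given in the sources used here, and the genotypes are therefore called by their labels. Motor neuron markers separated the fractions in part: all 9 tested marker probes had a higher mean in motor neurons, 5 of them without overlap (9.42% of all probes). Chat, Slc18a3, Lhx3 and Lhx4 passed the test (0.604% of all probes did), while Mnx1 itself had no matched probe. Isl1 and Isl2 overlapped. Isl1 read 0.06 and 0.13 in wild-type-labelled motor neurons, and 1.04 (knockout-labelled) and 0.09 (wild-type-labelled) in GFP-off cells. Row 1 of the slide held both knockout-labelled motor neuron arrays and row 2 the rest, so slide row and genotype label cannot be told apart in motor neurons.

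Most collagens read lower in motor neurons than in GFP-off cells, but almost none passed the test. Of the 49 tested probes, 38 lay below 0 in the difference of motor neurons minus GFP-off cells, against 54.1% of all 33264 probes tested. The median difference was -1.14, against -0.09 over all probes. On 22 collagen probes every motor neuron array was below both GFP-off arrays, which held for 14.9% of all probes, and on 4 every motor neuron array was above, which held for 9.42%. After Benjamini-Hochberg adjustment in limma, 1 probe rose (0.604% of all probes did) and 0 fell (0.192% did), and 24 of the 49 had an unadjusted p under 0.05, against 19.1% of all probes. In sorted bulk samples, fewer cells of a type and less RNA per cell cannot be told apart.

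**Figure D1:**
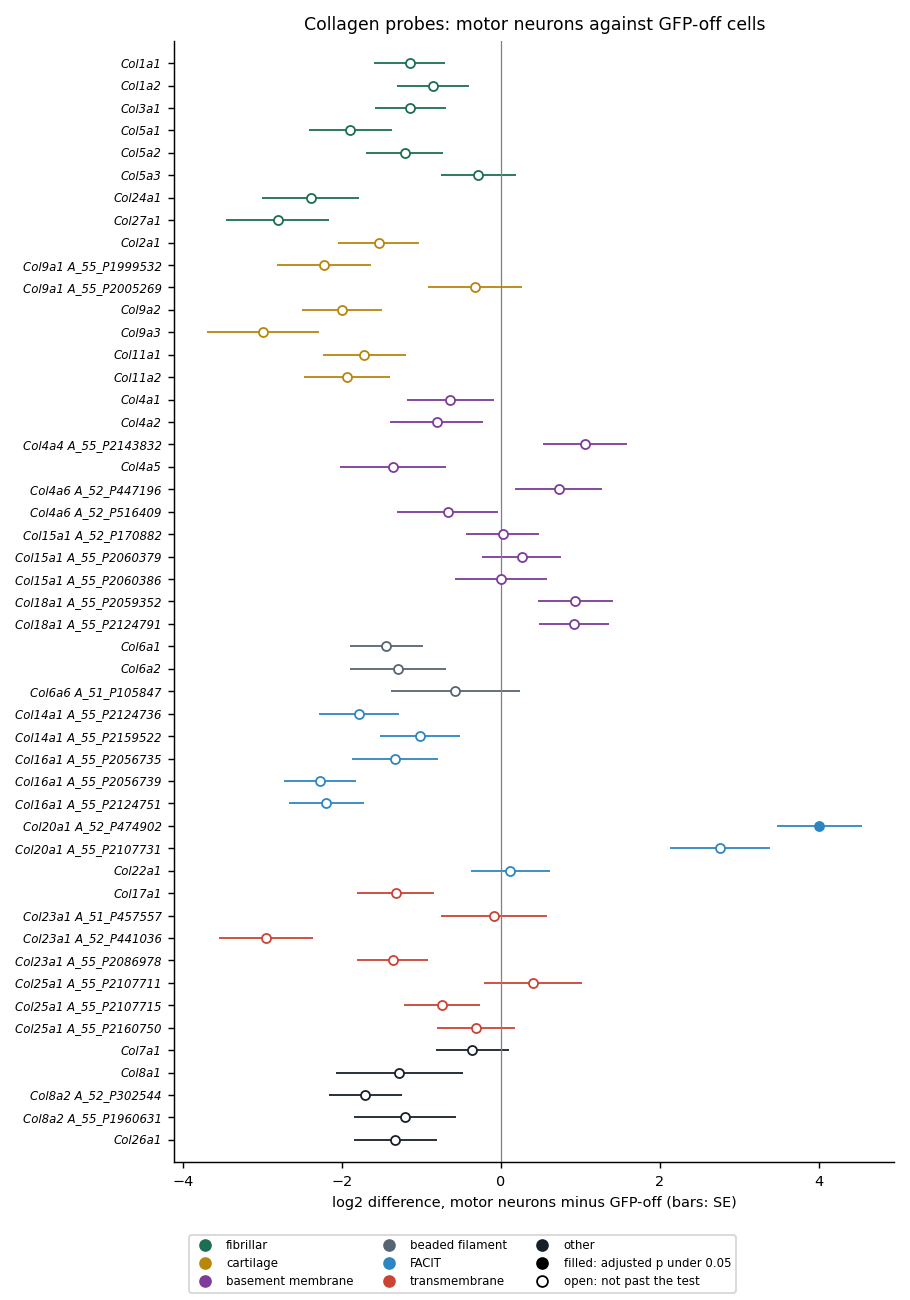
Difference in log2 level, motor neurons minus GFP-off cells, for each of the 49 tested collagen probes (points; bars are the standard error of the fitted difference; 4 motor neuron arrays against 2 GFP-off arrays), coloured by collagen family. All 11 probes of fibrillar collagens (Col2a1, Col11a1 and Col11a2 are drawn with the cartilage group) lie below 0, and the 2 Col20a1 probes, at 4.01 and 2.75, lie farthest above it.

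The fibrillar collagens all read lower in motor neurons, without a call. All 11 probes, 1 per gene, lay below 0 (54.1% of all probes did), with a median of -1.53 and a range from -2.80 to -0.28. On 9 of them every motor neuron array was below both GFP-off arrays (14.9% of all probes). None passed the test (lowest adjusted p = 0.0752), and 9 of 11 had an unadjusted p under 0.05 (19.1% of all probes did). With normexp background correction 10 of 11 lay below 0. Col1a1 and Col1a2 encode the chains of type I collagen, the main collagen of bone and skin. Col1a1 read 6.42 and 6.36 in knockout-labelled and 6.05 and 5.60 in wild-type-labelled motor neurons, and 7.52 (knockout-labelled) and 6.99 (wild-type-labelled) in GFP-off cells. Every motor neuron array was below both GFP-off arrays, and the difference was -1.14 (SE 0.45, adjusted p = 0.215). Col1a2 read 7.84 and 7.46, then 7.84 and 7.48, in the same order in motor neurons, and 8.69 and 8.33 in GFP-off cells, a difference of -0.85 (SE 0.45, adjusted p = 0.329). Both type I genes were thus well above background in motor neurons too, on every array. Col3a1, the type III chain found with type I in soft tissue, read 6.91, 6.67, 5.75 and 5.87 in motor neurons and 7.72 and 7.17 in GFP-off cells, without overlap (difference -1.14, adjusted p = 0.216).

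Col5a1 and Col5a2 encode chains of type V collagen, which starts type I fibrils. Col5a1 read 3.95 and 4.02 in knockout-labelled and 2.95 and 1.79 in wild-type-labelled motor neurons, against 5.33 and 4.8 in GFP-off cells. Its groups did not overlap, and the difference was -1.89 (SE 0.52, adjusted p = 0.111). Col5a2 read 1.51, 1.77, 1.42 and 0.47 in motor neurons and 2.92 and 2.09 in GFP-off cells (difference -1.21, adjusted p = 0.219). Col27a1 had the lowest difference of the family, -2.80 (SE 0.65, adjusted p = 0.0752): it read -1.62, -1.56, -3.64 and -1.76 in motor neurons, where the first wild-type-labelled array was not well above background, and 0.26 and 1.06 in GFP-off cells.

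The same 11 probes gave no call between the genotype labels in motor neurons. Of them 8 lay above 0 (10 with scaling to the array median, 9 with quantile normalization, 6 with normexp), against 44.9% of all probes. Their median was 0.69 against -0.20 over all probes, and 2 had an unadjusted p under 0.05, against 41.4% of all probes. Col5a1 came nearest, 1.62 higher in knockout-labelled motor neurons (SE 0.57, adjusted p = 0.0657). Col3a1 was 0.98 higher without overlap (adjusted p = 0.174), Col1a1 0.57 higher without overlap (adjusted p = 0.433), and Col1a2 differed by -0.01 (SE 0.52). In GFP-off cells, with 1 array per label and no test, 7 of the 11 were higher on the knockout-labelled array and 4 lower, with differences of 0.53 for Col1a1, 0.35 for Col1a2, 0.55 for Col3a1 and 0.53 for Col5a1. Of 13 mesenchyme marker probes (connective tissue around the cord), 10 lay above 0 between the labels in motor neurons (44.9% of all probes did). Their median was 0.65, and none passed the test (lowest adjusted p = 0.0670).

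Between the cell types the mesenchyme markers lay on the same side of 0 as the fibrillar collagens. All 13 tested probes of 12 marker genes lay below 0 in motor neurons minus GFP-off cells (54.1% of all probes did), with a median of -1.66. None passed the test (lowest adjusted p = 0.0780). On 9 every motor neuron array was below both GFP-off arrays (14.9% of all probes). Their summed linear level was 31.6 to 77.5 times the array's 75th percentile in motor neurons and 117 and 186 times in GFP-off cells, and 10 of the 12 genes were above background on all 6 arrays. Of 5 red cell probes 4 fell (0.192% of all probes did), with a summed level of 6.33 to 29.8 in motor neurons and 70.5 and 149 in GFP-off cells. Their part in the collagen values was not tested.

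The promoter of Col1a2 is shown as an example of this family, with the motifs found in it in capitals. It is the 250 bases before the annotated start (RefSeq, GRCm38.p6, chr6:4505368-4505617, plus strand), with CCAAT at base 142 and GGGCGG at bases 46 and 63:
Col1a2: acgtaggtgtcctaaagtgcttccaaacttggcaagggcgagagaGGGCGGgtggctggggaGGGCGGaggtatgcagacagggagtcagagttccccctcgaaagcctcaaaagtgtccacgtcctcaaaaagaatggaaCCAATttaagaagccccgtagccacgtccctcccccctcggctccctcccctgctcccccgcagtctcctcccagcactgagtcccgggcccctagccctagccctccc

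Promoter windows of 250 bases were given for 35 collagen genes (38 windows of 32851 in the table) and were searched on both strands for 3 short motifs, none of which holds another. GGGCGG (the GC box, or CCGCCC on the other strand) was in 22 collagen windows, 57.9%, both windows of Col6a2 among them, against 32.7% of all windows. The windows were not matched for base composition. CCAAT was in 13, 34.2%, against 33.8% of all windows, and TATAAA in 5, 13.2%, against 12.4%. A match is a run of letters and not a binding site.

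Cartilage collagens also read lower in motor neurons, without a call. This list (Col2a1, Col9a1, Col9a2, Col9a3, Col10a1, Col11a1 and Col11a2) shares its type II and XI chains with the fibrillar list, so the 2 counts are not independent. All 7 tested probes lay below 0 (54.1% of all probes did), with a median of -1.94. On 5 every motor neuron array was below both GFP-off arrays (14.9% of all probes). None passed the test (lowest adjusted p = 0.0790), and 6 had an unadjusted p under 0.05 (19.1% of all probes did). With normexp background correction, within the knockout-labelled arrays, or without the first wild-type-labelled motor neuron array, 6 of 7 lay below 0.

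Col2a1 encodes type II collagen, the main fibril of cartilage. It read 4.97 and 5.97 in knockout-labelled and 6.85 and 6.06 in wild-type-labelled motor neurons, 6.78 in knockout-labelled and 8.22 in wild-type-labelled GFP-off cells. The wild-type-labelled GFP-off array was above all others, and the knockout-labelled GFP-off array lay among the wild-type-labelled motor neuron arrays, so motor neurons and GFP-off cells overlapped (difference -1.53, SE 0.51, adjusted p = 0.161). Col9a2, a chain of type IX collagen, which coats type II fibrils, read 2.90, 3.07, 2.40 and 2.57 in motor neurons and 4.23 and 5.23 in GFP-off cells, a difference of -2.0 (SE 0.50, adjusted p = 0.0918). Col9a3, the third chain of the same trimer, read -1.78 and -1.34 in knockout-labelled motor neurons, was not well above background in wild-type-labelled motor neurons (-4.08 and -2.43), and read 0.04 and 1.12 in GFP-off cells (difference -2.99, SE 0.70, adjusted p = 0.0790). Col11a1, of type XI collagen at the core of cartilage fibrils, read 1.0, 1.38, 1.66 and 0.39 in motor neurons and 2.5 and 3.15 in GFP-off cells (difference -1.72, adjusted p = 0.138). Col9a2, Col9a3 and Col11a1 did not overlap between the fractions.

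The 2 probes of Col9a1 disagreed. A_55_P1999532 was above background on all 6 arrays and read 1.14, 2.46, 2.02 and 1.17 in motor neurons and 3.22 and 4.63 in GFP-off cells (difference -2.23, adjusted p = 0.104). A_55_P2005269 was not above background in knockout-labelled motor neurons (-3.79 and -4.73), read -2.43 (not above background) and -0.75 in wild-type-labelled ones, and -4.33 and -0.88 in GFP-off cells (difference -0.32, adjusted p = 0.791). Between the genotype labels in motor neurons the second probe fell (fitted difference -2.67, adjusted p = 0.0252, group means -4.26 and -1.59), while the first differed by 0.21 (SE 0.62, adjusted p = 0.828). Among the motor neuron arrays only wild-type-labelled replicate 2 read the second probe above background, so the size of its fall is uncertain. The fall was not called without knockout-labelled motor neuron replicate 2 or without wild-type-labelled motor neuron replicate 2.

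In GFP-off cells, all 7 tested cartilage collagen probes were lower on the knockout-labelled array, under each of the 5 scalings tried. These are 2 single arrays, so the difference has no replicate check. The median difference was -1.40, against -0.04 over all 31291 probes above background on both arrays, and the range was -3.45 to -0.64. Of the 7, 5 were over 2-fold lower, against 5.22% of all probes: Col9a1 A_55_P2005269 by -3.45, Col11a2 by -2.51, Col2a1 by -1.43, Col9a1 A_55_P1999532 by -1.40 and Col9a3 by -1.08. Col9a2 differed by -1.0 and Col11a1 by -0.64. Over all 49 collagen probes 3 were over 2-fold higher, against 1.6% of all probes, and 8 over 2-fold lower, with a median of -0.002. Col10a1, which marks hypertrophic chondrocytes, was not above background in either GFP-off array.

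Cartilage markers lay on the same side. All 9 tested probes of 8 marker genes were lower on the knockout-labelled GFP-off array, 7 of them over 2-fold, and their summed level was 50.7 times the 75th percentile on the wild-type-labelled GFP-off array, 11.2 on the knockout-labelled one and 3.90 to 8.57 on the motor neuron arrays. Only 3 of the 8 were above background on all 6 arrays. Mesenchyme markers did not share this direction: 9 of 13 probes were higher and 4 lower on the knockout-labelled array. The part of cartilage cells in the collagen values was not tested.

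**Figure D2:**
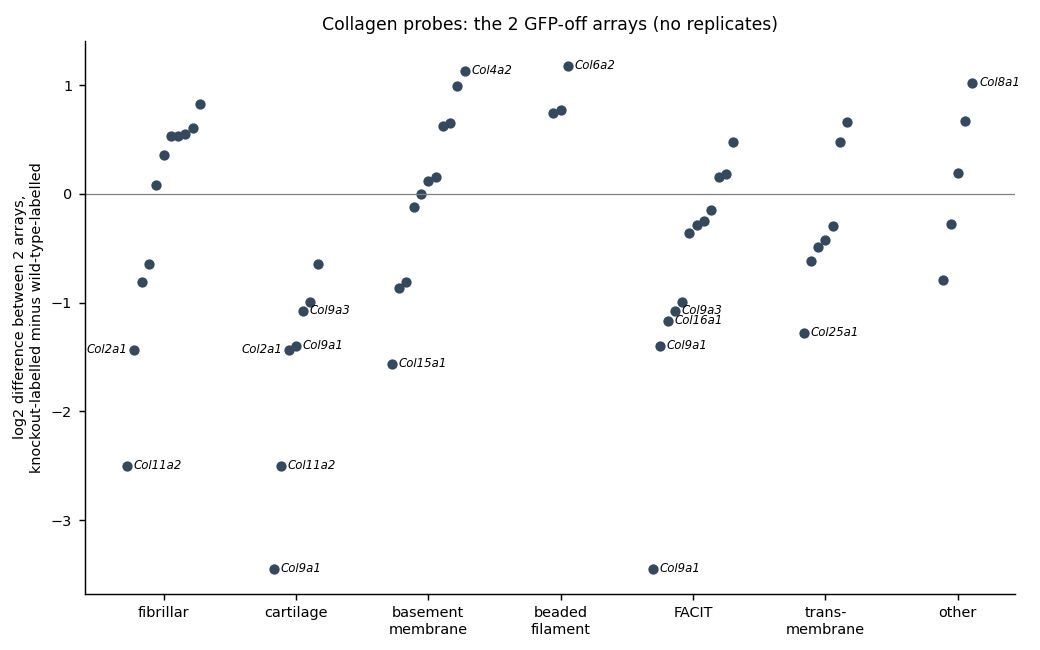
Difference in log2 level between the 2 GFP-off arrays, knockout-labelled minus wild-type-labelled, for the 49 tested collagen probes by family (points; probes past 1 log2 unit are named; Col2a1, Col11a1, Col11a2 and the type IX chains stand in 2 families; no replicates). All 7 cartilage probes lie between -3.45 and -0.64, and the 3 beaded filament probes between 0.75 and 1.18.

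The promoter of Col9a2, whose 4 motor neuron arrays all read below both GFP-off arrays, is shown beside that of Col1a2 above. It is the 250 bases before the start (RefSeq, GRCm38.p6, chr4:121039316-121039565, plus strand). It held no CCAAT, and the GC box letters are in capitals, CCGCCC at base 225 and GGGCGG at base 237:
Col9a2: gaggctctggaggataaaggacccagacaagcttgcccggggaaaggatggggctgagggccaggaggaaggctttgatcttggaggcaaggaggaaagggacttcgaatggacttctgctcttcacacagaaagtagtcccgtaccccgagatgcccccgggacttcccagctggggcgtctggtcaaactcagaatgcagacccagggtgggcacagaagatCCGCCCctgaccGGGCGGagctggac

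Basement membrane collagens lay on both sides of 0 between the cell types. Of 11 tested probes of 7 genes, 4 lay below 0 and 7 above, with a median of 0.02 (-0.11 with scaling to the array median, -0.24 with quantile normalization). None passed the test, and none had an unadjusted p under 0.05 in limma. Col18a1, the core protein of a heparan sulfate proteoglycan and the source of endostatin, was the only gene of the list whose motor neuron arrays were all above both GFP-off arrays, on both its probes. Probe A_55_P2059352 read 4.76 and 4.45 in knockout-labelled and 4.30 and 3.57 in wild-type-labelled motor neurons, and 3.41 and 3.25 in GFP-off cells (difference 0.94, SE 0.47, adjusted p = 0.307). Probe A_55_P2124791 read 3.80, 3.67, 3.72 and 3.56 against 2.82 and 2.70 (difference 0.92, SE 0.44, adjusted p = 0.285).

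Between the genotype labels in motor neurons, basement membrane collagens held the largest rises and also the largest fall among the collagens. Of their 11 tested probes 3 rose and 2 fell, with 6 above 0, 5 below and a median of 0.10. Over all 49 collagen probes 5 rose in knockout-labelled motor neurons (10.6% of all probes did) and 6 fell (14.2% did). In all 31 lay above 0 (44.9% of all probes did), and 19 had an unadjusted p under 0.05 (41.4% of all probes did). On 23 the knockout-labelled arrays were both above the wild-type-labelled ones (29.8% of all probes) and on 15 both below (39.7%). With scaling to the array median, the median of all probes moved from -0.20 to 0.44, and the share of higher calls among all calls from 42.7% to 73.9% (80.1% with quantile normalization and 67.8% with normexp). Collagen differences are therefore read against those medians: the collagen median lay 0.55 above that of all probes with both the 75th percentile and the median, 0.39 above with quantile normalization and 0.49 above with normexp.

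Col4a1 and Col4a2 encode the chains of the common type IV trimer, which is in nearly all basement membranes. Col4a1 read 3.30 and 3.32 in knockout-labelled motor neurons and 0.62 and 0.06 in wild-type-labelled ones. In GFP-off cells it read 2.95 in knockout-labelled and 1.96 in wild-type-labelled cells. Both wild-type-labelled arrays of motor neurons were below all other arrays, and the gene rose by 2.97 (SE 0.52, adjusted p = 0.0106). Col4a2 read 3.53 and 3.15 in knockout-labelled and 0.49 and -0.41 in wild-type-labelled motor neurons, and 3.06 and 1.93 in GFP-off cells. It showed the same order and rose by 3.30 (SE 0.55, adjusted p = 0.00984). Both rises kept their sign under all 15 alternatives and were called under 13. Leaving out each motor neuron array in turn gave 2.69 to 3.25 for Col4a1 and 2.85 to 3.75 for Col4a2, all called.

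Col4a5, of the trimer found in kidney and smooth muscle basement membranes, read 0.57 and 0.91 in knockout-labelled motor neurons, -0.94 and -2.90 in wild-type-labelled ones (the second not well above background), and 1.07 and 0.45 in GFP-off cells. It rose by 2.66 (SE 0.68, adjusted p = 0.0266). The call was lost without knockout-labelled motor neuron replicate 2 and without wild-type-labelled motor neuron replicate 2. Without the latter, the array that stood farthest apart, the difference was 1.68.

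Col15a1 and Col4a6 had probes that fell, and Col18a1 and Col4a4 gave no call. The Col18a1 probes differed by 0.67 and 0.10, and the tested probe of Col4a4, a chain of the kidney type IV network, by -1.36 (SE 0.56, adjusted p = 0.0993), below 0 unlike Col4a1, Col4a2 and Col4a5. Col15a1, a basement membrane zone proteoglycan, fell on probe A_55_P2060386, which read -2.25 and -3.28 in knockout-labelled and -0.61 and 0.66 in wild-type-labelled motor neurons (difference -2.79, SE 0.63, adjusted p = 0.0191), and -2.16 and -0.59 in GFP-off cells. The call was lost without replicate 2 of either motor neuron group. Its 2 other probes, A_55_P2060379 and A_52_P170882, were dim and differed by -0.81 (adjusted p = 0.319) and -0.82 (adjusted p = 0.268). The 2 probes of Col4a6, the partner chain of Col4a5, had opposite signs. A_52_P447196 read -2.40 and -2.52 in knockout-labelled and -0.07 and -0.51 in wild-type-labelled motor neurons and fell by 2.17 (SE 0.52, adjusted p = 0.0216), a call lost without either knockout-labelled motor neuron array and with scaling to the array median. A_52_P516409 read -0.19, 0.10, -0.41 and -2.67 in the same order, the last not well above background, a difference of 1.5 (SE 0.73, adjusted p = 0.152). Over the 10 collagen genes with more than 1 tested probe, the probes shared a sign in 5 genes for the genotype labels and in 8 for the cell types.

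**Figure D3:**
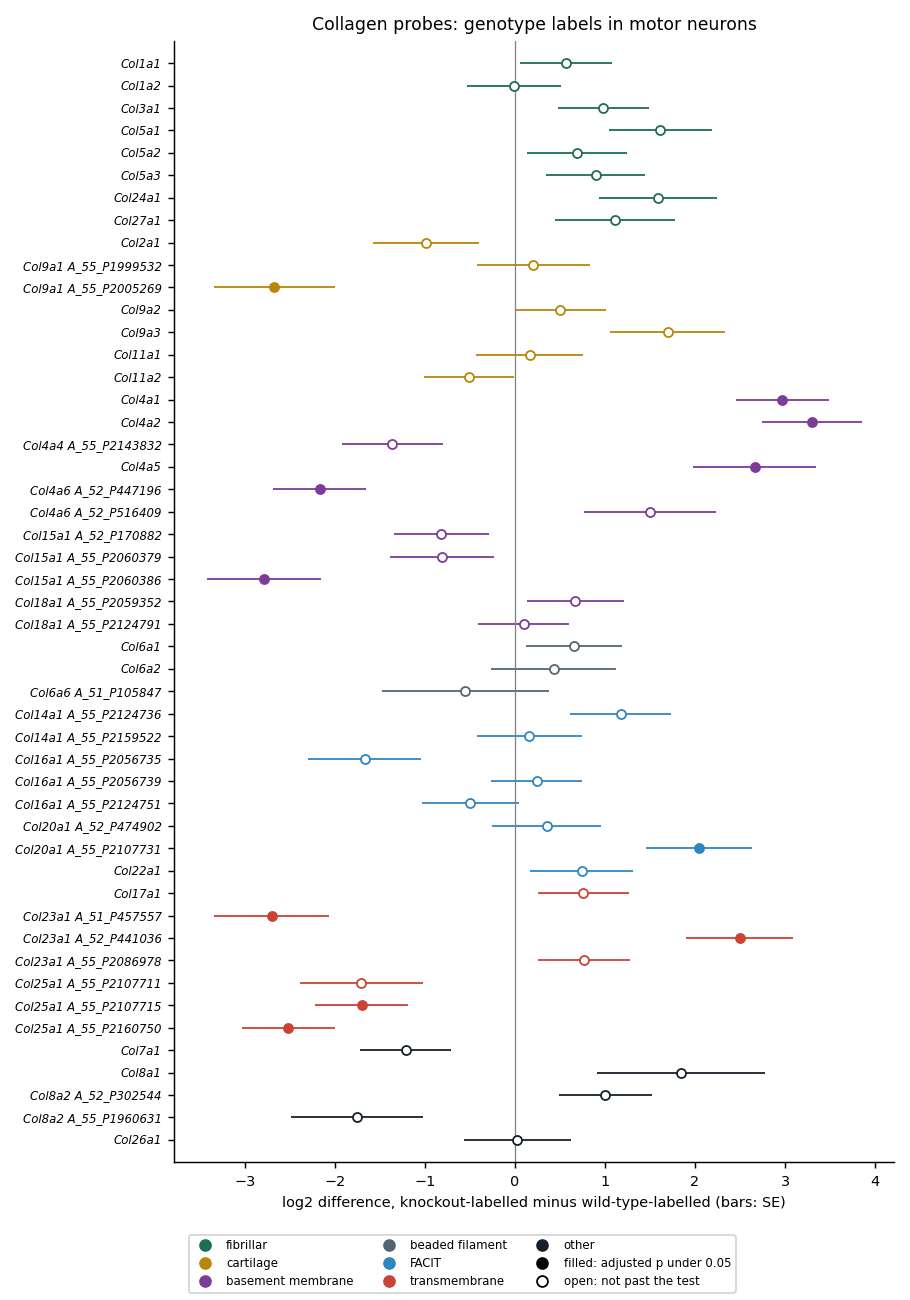
Difference in log2 level in motor neurons, knockout-labelled minus wild-type-labelled, for each of the 49 tested collagen probes (points; bars are the standard error; 2 arrays against 2; filled points passed the test). Col4a1, Col4a2 and Col4a5 lie at 2.97, 3.30 and 2.66, the fibrillar probes have open points, and the probes of Col4a6 and of Col23a1 lie on both sides of 0.

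Col4a1 and Col4a2 lie head to head and are transcribed away from each other. The stretch between their annotated starts is shown because both rose together, and because the 5′ ends overlap in this annotation (RefSeq, GRCm38.p6, chr8:11312801-11312830, 30 bases of the plus strand; capitals are the 22 bases from the start of Col4a2, on the plus strand, to the start of Col4a1, on the minus strand):
Col4a2 and Col4a1: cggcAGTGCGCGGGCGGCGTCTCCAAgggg

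The promoter of Col4a5, on another chromosome and the third type IV chain that rose, is shown for comparison (RefSeq, GRCm38.p6, chrX:141475169-141475369, plus strand, 201 bases upstream of the annotated gene). The match to the motifs in this stretch is CCAAT at base 55, in capitals. The full upstream window of Col4a5 also held the GC box letters, outside the stretch shown. The windows of Col4a1 and Col4a2 held CCAAT too, and that of Col4a2, but not that of Col4a1, the GC box letters:
Col4a5: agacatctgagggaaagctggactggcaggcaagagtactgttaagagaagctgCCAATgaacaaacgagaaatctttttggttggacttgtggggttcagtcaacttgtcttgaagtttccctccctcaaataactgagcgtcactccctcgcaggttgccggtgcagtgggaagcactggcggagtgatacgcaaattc

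The partners of type IV collagen in the basement membrane showed calls in both directions. Of 21 tested probes of 15 genes, 4 rose and 2 fell in knockout-labelled motor neurons (10.6% and 14.2% of all probes did). The laminin chains Lama4 (3.13, adjusted p = 0.0103), Lamc1 (2.54, adjusted p = 0.0240) and Lama2 (1.94, adjusted p = 0.0449) and the linker nidogen Nid2 (3.11, adjusted p = 0.00959) rose. A probe of the other nidogen, Nid1 (-2.77, adjusted p = 0.0180), and a probe of agrin, Agrn (-2.48, adjusted p = 0.0301), fell. The brightest probe of each lay above 0 without a call: Nid1 A_55_P2084308 at 1.82 (adjusted p = 0.100, no overlap) and Agrn A_55_P2009121 at 0.28 (adjusted p = 0.721). Lama4 and Nid2 were called with each motor neuron array left out in turn, and the other 4 lost the call without at least 1 of the replicate 2 arrays. Lama4 read 3.24 and 2.91 in knockout-labelled and 0.34 and -0.45 in wild-type-labelled motor neurons, and 3.16 and 2.39 in GFP-off cells. Between cell types 0 of these 21 passed the test in limma, and 3 had an unadjusted p under 0.05 (19.1% of all probes did).

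Markers of vessel cells and macrophages were read on the same arrays. Between the genotype labels in motor neurons 10.6% of all probes rose and 44.9% lay above 0, and the counts below stand beside these shares. Of 10 endothelial probes, those of Cdh5 and Cldn5 rose in knockout-labelled motor neurons, and 7 lay above 0. The summed endothelial level was 9.51 and 16.2 in knockout-labelled motor neurons, and 17.3 and 116 in wild-type-labelled motor neurons. The last sum is nearly all 1 probe of Kdr, A_55_P2094469, which read 6.83 on that array, while the other Kdr probe lay at 0.52 between the labels. Of 6 pericyte probes, that of Rgs5 rose; the summed level was 21.0 and 25.5 on the knockout-labelled and 30.1 and 15.2 on the wild-type-labelled arrays. Of 9 macrophage probes, 6 rose, and the summed level was 18.0 and 21.5 on the knockout-labelled and 5.39 and 10.51 on the wild-type-labelled arrays. Of 9 motor neuron marker probes, 4 rose in knockout-labelled motor neurons (Prph, Isl1, Isl2 and Slc5a7). In all 7 lay above 0 and 2 below, with a median of 0.51. Chat (-0.34, adjusted p = 0.663) and Lhx3 (0.37, adjusted p = 0.661) were not called. The summed level of the motor neuron markers was 33.5 and 39.9 on the knockout-labelled and 12.04 and 8.15 on the wild-type-labelled arrays. The part of these cells in the type IV values was not tested.

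**Figure D4:**
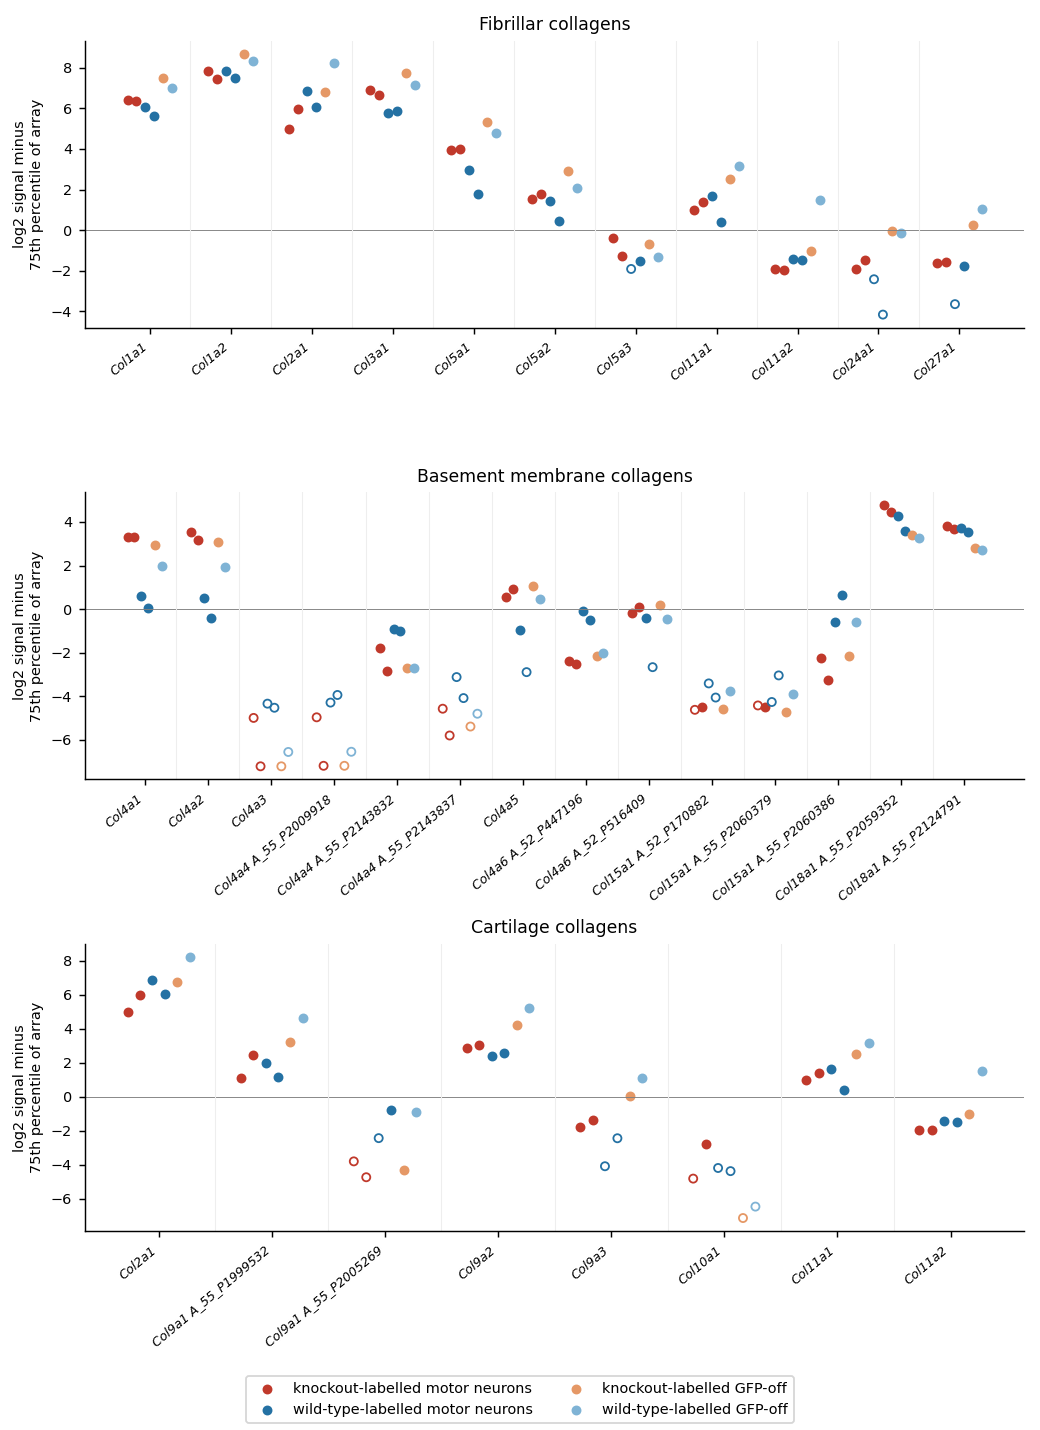
Log2 level of every probe of the fibrillar, basement membrane and cartilage lists on each of the 6 arrays (points; open points were not well above background; Col2a1, Col11a1 and Col11a2 appear in 2 panels). The GFP-off points sit highest for most fibrillar and cartilage probes, and the wild-type-labelled motor neuron points, at 0.62 and 0.06 for Col4a1, sit lowest for Col4a1 and Col4a2.

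Col20a1, a FACIT collagen, was the only collagen higher in motor neurons past the test. Probe A_52_P474902 read 3.08 and 1.64 in knockout-labelled and 2.04 and 1.97 in wild-type-labelled motor neurons, and -2.01 and -1.65 in GFP-off cells. All motor neuron arrays were far above both GFP-off arrays, and it rose by 4.01 (SE 0.53, adjusted p = 0.0275). The difference stayed between 2.97 and 4.39 under 18 alternatives and was called under 12 of them. It was not called without either wild-type-labelled motor neuron array or without the wild-type-labelled GFP-off array (3.65 to 4.37 over all arrays left out in turn). The second probe, A_55_P2107731, read 2.23 and 0.92, then -0.37 and -0.57, in motor neurons and -2.35 and -2.06 in GFP-off cells, without overlap (difference 2.75, SE 0.63, adjusted p = 0.0741). Within motor neurons the second probe rose in knockout-labelled cells by 2.04 (SE 0.59, adjusted p = 0.0367), while the first differed by 0.36 (SE 0.61, adjusted p = 0.686). That rise was not called without knockout-labelled motor neuron replicate 1 or without wild-type-labelled motor neuron replicate 2.

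Markers of Schwann cells and neural crest are given beside Col20a1. All 6 of their probes lay above 0 in motor neurons minus GFP-off cells, the lowest at 0.05 for Fabp7 (adjusted p = 0.975). Fabp7 read 2.66 and 1.95 in wild-type-labelled motor neurons, below both GFP-off arrays. Sox10 (3.93, adjusted p = 0.0275) and Foxd3 (4.29, adjusted p = 0.0118) rose (0.604% of all probes did). Both lost the call without the same 3 wild-type-labelled arrays as Col20a1. The summed level of the 6 markers was 28.8 to 89.1 in motor neurons and 15.2 and 17.8 in GFP-off cells, and 5 of the 6 were above background on all arrays. In GFP-off cells most of that sum is Fabp7, which read 3.64 and 3.86 there, while Foxd3 read -2.03 and -1.97. The summed level of the motor neuron markers was also higher in motor neurons, 8.15 to 39.9 against 3.42 and 5.19 in GFP-off cells. The part of either cell type in the Col20a1 values was not tested.

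The other FACIT collagens were mostly lower in motor neurons: 9 of the 12 tested FACIT probes, type IX included, lay below 0. Col16a1 A_55_P2056739 read 3.69, 3.95, 3.62 and 3.54 in motor neurons and 5.85 and 6.10 in GFP-off cells, without overlap, and just missed the threshold (difference -2.27, SE 0.45, adjusted p = 0.0524). Col14a1, which binds the surface of type I fibrils, differed by -1.78 (adjusted p = 0.118) and -1.02 (adjusted p = 0.299) on its 2 probes, both without overlap.

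Beaded filament type VI collagen lay on the same side of 0 as the fibrillar collagens, without a call. Col6a1 read 4.04 and 3.85 in knockout-labelled and 3.64 and 2.94 in wild-type-labelled motor neurons, and 5.43 and 4.68 in GFP-off cells (difference -1.44, SE 0.46, adjusted p = 0.152). All 3 tested probes of this list lay below 0, but only that of Col6a1 did not overlap between the fractions. The tested Col6a6 probe was above background on no motor neuron array (difference -0.57, adjusted p = 0.723). In GFP-off cells all 3 were higher on the knockout-labelled array, by 0.75 to 1.18, opposite in direction to the cartilage list. The 5 tested probes of the remaining collagens (Col7a1, Col8a1, Col8a2 and Col26a1) were also all below 0 in motor neurons, from -1.70 to -0.36, with none past the test.

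Of 7 tested probes of 3 transmembrane collagen genes, 3 fell and 1 rose between the genotype labels (14.2% and 10.6% of all probes did). The falls were on probes of Col25a1 and on 1 probe of Col23a1, and the rise was on another Col23a1 probe. Col25a1 encodes a transmembrane collagen made by neurons, known for its part in motor innervation of muscle. Probe A_55_P2160750 read -0.04 and -0.55 in knockout-labelled and 2.18 and 2.26 in wild-type-labelled motor neurons, and 0.64 and 1.92 in GFP-off cells. The knockout-labelled motor neuron arrays were the lowest, and the probe fell by 2.52 (SE 0.52, adjusted p = 0.0154). The call was lost without knockout-labelled motor neuron replicate 2. A_55_P2107715 read -2.96 (not above background), -2.54, -1.20 and -0.89 and fell by 1.70 (adjusted p = 0.0424). It was called without wild-type-labelled replicate 1 only, of the 4 motor neuron arrays left out in turn. The remaining probe, A_55_P2107711, differed by -1.71 (SE 0.68, adjusted p = 0.0925), so all 3 were below 0. Between cell types the 3 differed by -0.32, -0.74 and 0.40, none past the test (adjusted p 0.415 to 0.747).

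Col23a1 probes contradicted each other between the genotype labels. A_52_P441036 read -2.58 and -1.26 in knockout-labelled motor neurons and was not above background in wild-type-labelled ones (-4.33 and -4.50): it rose, at least 1.22-fold higher (fitted difference 2.5, adjusted p = 0.0215). This lower bound takes, for each dim array, the higher of the probe's own signal and the lowest signal among probes well above background. A_51_P457557 read -3.12 (not above background), -2.98, -1.19 and 0.49 and fell by 2.70 (SE 0.64, adjusted p = 0.0215). A_55_P2086978 differed by 0.77 (SE 0.51, adjusted p = 0.286). Both called probes lost the call without wild-type-labelled motor neuron replicate 2, and A_52_P441036 also without knockout-labelled motor neuron replicate 2.

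Taken within 1 genotype label, the difference between cell types gave calls on the wild-type-labelled side alone, but a difference between the labels was not shown. Against the single wild-type-labelled GFP-off array, 4 collagen probes fell in motor neurons (1.5% of all probes did) and 1 rose (1.03% did). Those that fell were Col11a2 (-2.94, adjusted p = 0.0451), Col27a1 (-3.76, adjusted p = 0.0491), and Col9a3 and Col23a1 A_52_P441036, whose motor neuron values were below background. Col20a1 A_52_P474902 rose by 3.65 (adjusted p = 0.0426). In the knockout-labelled arrays 0 collagen probes and 0% of all probes passed, with 7 of 49 at an unadjusted p under 0.05, against 7.56% of all probes. The interaction of genotype label and cell type, which tests this difference, called 0 of 49 collagen probes (lowest adjusted p = 0.578) and 0% of all probes in limma, with 5 collagen probes and 8.43% of all probes at an unadjusted p under 0.05. These comparisons share arrays with the ones above.

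Genes that modify, fold, trim, export and cross-link collagen were examined as a list of 29 genes, 42 tested probes. Between cell types 0 rose and 2 fell (0.604% and 0.192% of all probes did), and on 28 every motor neuron array was below both GFP-off arrays (14.9% of all probes). Adamts2, which trims the N-propeptide of fibrillar procollagens, on probe A_51_P227222 read 0.73, 0.70, 0.02 and 0.03 in motor neurons and 3.04 and 2.43 in GFP-off cells and fell by 2.36 (SE 0.44, adjusted p = 0.0457). A dim probe of P3h1, a prolyl 3-hydroxylase, also fell (A_51_P346923, fitted difference -2.72, adjusted p = 0.0487), above background on 1 of the 4 motor neuron arrays. The bright P3h1 probe, A_55_P2159094, went the other way: it read 3.12, 2.36, 4.14 and 3.83 in motor neurons and 1.80 and 1.99 in GFP-off cells, without overlap (difference 1.47, adjusted p = 0.167), so P3h1 has no clear direction. With 1 array left out in turn, both calls held without knockout-labelled motor neuron replicate 2 and were lost without each of the other arrays. Serpinh1, the collagen chaperone HSP47, differed by -0.88 (adjusted p = 0.350).

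Between the genotype labels in motor neurons 7 of the 42 rose and 2 fell (10.6% and 14.2% of all probes did). P4hb, the shared subunit of prolyl 4-hydroxylase and a general disulfide isomerase, read 2.90 and 3.46 in knockout-labelled and -0.98 and -1.06 in wild-type-labelled motor neurons, and 4.06 and 3.53 in GFP-off cells. It rose by 4.20 (SE 0.52, adjusted p = 0.00692), and as with Col4a1 both wild-type-labelled arrays of motor neurons were below all others. The lysyl oxidase Loxl1 (2.74, adjusted p = 0.0123) and the collagen galactosyltransferase Colgalt1 (2.66, adjusted p = 0.0148) rose, and a probe of the C-propeptidase Bmp1 fell (-2.72, adjusted p = 0.0164), as did one of P4ha3 (-2.20, adjusted p = 0.0303). P4hb was called with each motor neuron array left out in turn. All 4 others lost the call without knockout-labelled motor neuron replicate 2, and Bmp1 and P4ha3 also without wild-type-labelled motor neuron replicate 2.

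Of 15 tested probes of collagen receptors, 1 fell between cell types (0.192% of all probes did) and 3 fell between the genotype labels (14.2% of all probes did), with no rise in either. Ddr2, the receptor kinase for fibrillar collagen, on probe A_55_P1992954 read -4.12, -1.90, -4.20 and -3.79 in motor neurons, above background on 1 of the 4 arrays, and 0.45 and -0.23 in GFP-off cells (difference -3.61, adjusted p = 0.0380), a call that held without either knockout-labelled motor neuron array and was lost without each of the other 4 arrays. The brighter Ddr2 probe lay on the same side without a call (-1.43, adjusted p = 0.156, no overlap). Itga1, the integrin chain that binds type IV collagen, on probe A_52_P518922 read 0.15 and -1.05 in knockout-labelled and 2.16 and 4.34 in wild-type-labelled motor neurons and fell by 3.70 (SE 0.77, adjusted p = 0.0156), also with each motor neuron array left out in turn. The other Itga1 probe, A_52_P459929, also above background on all arrays, lay the other way at 0.62 without overlap (SE 0.54, adjusted p = 0.420). A probe of Mrc2, an uptake receptor for collagen fragments (-1.93, adjusted p = 0.0315), and a probe of Lair1, an inhibitory receptor of immune cells (-1.59, adjusted p = 0.0477), fell too. Each lost the call when knockout-labelled replicate 1, replicate 2 or wild-type-labelled replicate 2 was left out, Lair1 also without wild-type-labelled replicate 1, and the other tested probe of Mrc2 lay at 1.61 (adjusted p = 0.0786).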

How the data were processed

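Each of the 6 sorted samples was run on its own 1-colour array (dye Cy3); all lay on 1 slide, read in 1 scan. The scanned image was read by Agilent Feature Extraction, version 10.5.1.1 per the file headers and 9.1 per the submitters' processing notes. In the deposited scanner files, each spot has a processed intensity (background-subtracted, not scaled between arrays), a raw median and a background intensity, and other columns that flag spots as above background, saturated or irregular. No spot was saturated. The authors' value table is in log2 and equals the values used here within a tolerance of 0.01 for 99.7% to 99.9% of probes.

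Those values were log2 processed signals, averaged over unflagged spots, minus the array's 75th percentile over all probes. The files used here hold no gene name column, so symbols came through RefSeq accessions (GRCm38.p6): 26300 probes had 1 gene and 29381 none. The headers name mm9, so coordinates are given only for RefSeq sequences. Every probe well above background on at least 2 arrays was tested singly with limma 3.58.1 in R 4.3.3 (lmFit, eBayes), with Benjamini-Hochberg adjustment over 33264 probes and a threshold of 0.05. Cell types were compared in an additive model with genotype label (3 residual degrees of freedom), and genotype labels in motor neurons and the interaction from 4 group means (2 residual degrees of freedom), where the single GFP-off arrays were assumed to vary like the others. The fit was tested on simulated data. Alternatives were other scalings, normexp background on raw signals (offset 50), other filters, and arrays left out.

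The collagens and all gene lists were chosen with earlier results of these data known. Named were probes past the threshold, preset genes of each family with all probes of a gene named, and up to 4 called genes per pathway list. Col4a4, Col7a1, Col8a1, Col8a2, Col9a2, Col11a2, Col14a1, Col16a1, Col26a1, Col27a1, Serpinh1, Lama2, Agrn, P4ha3 and the markers named were added after their values were seen.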

Additional observations from a re-analysis of the deposited data

How the results depend on the processing

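Counts of called collagen probes moved with the processing, while no called probe reversed its sign. Higher in motor neurons than in GFP-off cells (1 probe): 0 with quantile normalization, without a filter on dim probes and within the knockout-labelled arrays, and 2 with probes above background on all 6 arrays; leaving out 1 array in turn gave 0 to 2. Lower in motor neurons (0 probes): 5 with scaling to the array median, 1 with normexp, 8 with probes above background on all 6 arrays, 4 within the wild-type-labelled arrays, and 3 with only probes that have a gene symbol (an alternative chosen after seeing the data); leaving out 1 array in turn gave 0 to 8, with 8 without knockout-labelled motor neuron replicate 2 and 4 without the knockout-labelled GFP-off array. Higher in knockout-labelled motor neurons (5 probes): 13 with scaling to the array median, 3 with quantile normalization or 1 probe per gene, 2 with normexp, and 0 without a filter or with an additive model; leaving out 1 array gave 3 to 10. Lower in knockout-labelled motor neurons (6 probes): 1 with quantile normalization, 2 with 1 probe per gene, and 0 with normexp, without a filter or with an additive model; leaving out 1 array gave 1 to 8. The cause was not tested. The interaction called 0 collagen probes under every alternative run, and the median difference between the GFP-off arrays stayed between -0.15 and 0.26.

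The deviations of same-numbered motor neuron arrays correlated at -0.10 over 33264 probes. With 2 arrays per label, this does not settle whether replicate numbers pair the arrays. With the replicate block, 2 collagen probes were higher and 3 lower in motor neurons than in GFP-off cells, and 6 were higher and 6 lower in knockout-labelled motor neurons. With the tag that the descriptions give to replicate 1 and the GFP-off array of a label as the block, 2 were higher and 8 lower in motor neurons. Over all tested collagen probes and the called pathway and marker probes, 69 alternative values newly passed the threshold and 365 no longer did. The 75th percentile signal was 48.5 to 64.5 on 3 of the motor neuron arrays. The part of dim probes and dim arrays in these changes was not tested.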
